A study of Mus musculus with 7 samples.

Results

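The genes of the platelet-derived growth factor (PDGF) system, 2 receptors (*Pdgfra* and *Pdgfrb*) and 4 ligands (*Pdgfa*, *Pdgfb*, *Pdgfc* and *Pdgfd*), were chosen by their symbols as 6 of the 33696 genes in the count table. They were read in the 8917 of 10047 nuclear barcodes that had 2000 to 8000 detected genes. The cells, named BBp53n OPCs, were oligodendrocyte progenitor cells (OPCs) of early postnatal Trp53 fl/fl C57BL/6 pups of both sexes, bound with an antibody to CD140a, which is the protein of *Pdgfra*. They were grown in culture and transduced with a PDGFB-IRES-CRE retrovirus, which deletes *Trp53* and expresses PDGFB, so that every cell of the group was meant to be Trp53 null and to overexpress PDGFB. Their nuclei gave 1 single-nucleus RNA-seq library, and the 3 early and 3 late tumor samples of the study were not analysed here. There was no untransduced library and no replicate, so no difference below could be tested, and each interval is a 95% exact interval that covers counting error only.

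PDGF ligands are secreted as dimers and act through receptor tyrosine kinases that pair, phosphorylate each other and recruit adapters to the PI3K and RAS-ERK pathways. PDGFRα binds PDGF-A, PDGF-B and PDGF-C and is the mitogen receptor of OPCs, whereas PDGFRβ binds PDGF-B and PDGF-D and is best known in pericytes and smooth muscle. PDGF-A and PDGF-B are cleaved inside the cell by furin-type convertases, while PDGF-C and PDGF-D are secreted in a latent form that outside proteases activate.

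The kept nuclei held 141138093 unique molecular identifiers (UMIs, 1 per captured RNA molecule), and the median nucleus had 13771 UMIs from 4718 genes. Levels are the UMIs of a gene per 1000000 UMIs of the summed nuclei (CPM). To compare detection at 1 depth, 5000 UMIs were drawn at random from every nucleus, and the 8760 nuclei deep enough for this (157 were not) are called thinned nuclei. The nuclei fell into 8 clusters, numbered 0 to 7, of 182 to 1810 nuclei. *Pdgfra*, *Pdgfrb*, *Pdgfc* and *Pdgfd* were among the genes used to cluster, so their differences between clusters are descriptions. Scrublet, a caller that scores likeness to simulated pairs, called no doublet, a result not taken as their absence, and none was removed. Its scores are used only to rank nuclei. Cluster 1 (1733 nuclei) stood apart in that it had little of the OPC genes *Sox10*, at 5.87 CPM against 102.5 CPM in all other nuclei, and *Lhfpl3*, at 123 CPM against 2293 CPM. Of the 8 OPC markers that reached 10 CPM, 6, with *Pdgfra* itself among them, were at 0.5 times or less there, beside 8.78% of all genes of that level. *Olig1*, at 0.817 times all other nuclei (520.0 CPM), and *Olig2*, at 0.688 times (212 CPM), were not.

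*Pdgfra* was by far the most abundant member. It had 36108 UMIs, or 256 CPM (253 to 258), and 621 genes of the table had more. *Pdgfrb*, the receptor of mural cells, had 11 UMIs in 9 nuclei, or 0.0779 CPM (0.0389 to 0.139). Per kb of gene span, *Pdgfra* was at 5.46 CPM per kb (5.40 to 5.51) and *Pdgfrb* at 0.00195 (0.000975 to 0.00349). Whether span or transcript length is the better divisor for these counts was not tested. *Pdgfra* was found in 57.0% (55.9 to 58.0) of thinned nuclei and *Pdgfrb* in 4 of them, 0.0457% (0.0124 to 0.117).

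Among the ligands, *Pdgfa*, the main PDGFRα ligand of the developing brain, had 5133 UMIs at 36.4 CPM (35.4 to 37.4). *Pdgfc*, also a PDGFRα ligand, had 3837 UMIs at 27.2 CPM (26.3 to 28.1). *Pdgfd*, a PDGFRβ ligand, had 644 UMIs at 4.56 CPM (4.22 to 4.93), and the mouse gene *Pdgfb* had 75 UMIs at 0.531 CPM (0.418 to 0.666). Per kb of gene span the order of the ligands was *Pdgfa* at 1.68 CPM per kb, *Pdgfc* at 0.153, *Pdgfb* at 0.0277 (0.0218 to 0.0347) and *Pdgfd* at 0.0216 (0.020 to 0.0234). The last 2 did not differ beyond their intervals on that scale. Per kb of the canonical transcript *Pdgfd*, at 1.17 CPM per kb, lay above *Pdgfb*, at 0.171. The retroviral PDGFB transcript was not analysed here as a gene of its own, and whether any of the 75 UMIs came from it was not tested, so the *Pdgfb* level is not a measure of the PDGFB that the cells made.

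*Pdgfra* lies on the plus strand at chr5:75311994-75358876 in GRCm39 and *Pdgfa* on the minus strand of the same chromosome at chr5:138961758-138983435. *Pdgfc* (chr3:80943668-81121473) and *Pdgfd* (chr9:6168240-6379265) are on the plus strand and *Pdgfb* (chr15:79880009-79899181) on the minus strand. Each of the 6 is a protein-coding gene, and the spans run from 19.2 kb for *Pdgfb* to 211 kb for *Pdgfd*. For 5 of the members a gene on the opposite strand overlaps the span, and the largest of these, *6330403L08Rik* in *Pdgfa*, had 420 UMIs at 2.98 CPM. The others had 1 to 73 UMIs.

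Sequence upstream of RefSeq starts was at hand for 4 of the 6 members (RefSeq promoter table on GRCm38.p6, placed on GRCm39 by exact match). It is shown for the 3 members that reached 10 CPM, from the 250 bases before a start, as the longest stretch free of annotated exons. The *Pdgfra* stretch is chr5:75312662-75312833 (plus strand) and lies before the canonical transcript but inside the span of the gene. The *Pdgfa* stretch is chr5:138980037-138980153 (minus strand) and is intronic in the canonical transcript. The *Pdgfc* stretch is chr3:80943473-80943667 (plus strand), just before the gene. Capitals mark the E-box, CANNTG, the letters that basic helix-loop-helix factors such as Olig2 can bind, searched on both strands.
Pdgfra: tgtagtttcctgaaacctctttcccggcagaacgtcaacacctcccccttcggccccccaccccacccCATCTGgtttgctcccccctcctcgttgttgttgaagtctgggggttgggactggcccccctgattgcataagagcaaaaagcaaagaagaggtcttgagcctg
Pdgfa: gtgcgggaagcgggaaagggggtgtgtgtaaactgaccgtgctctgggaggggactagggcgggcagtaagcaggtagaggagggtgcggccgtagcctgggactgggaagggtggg
Pdgfc: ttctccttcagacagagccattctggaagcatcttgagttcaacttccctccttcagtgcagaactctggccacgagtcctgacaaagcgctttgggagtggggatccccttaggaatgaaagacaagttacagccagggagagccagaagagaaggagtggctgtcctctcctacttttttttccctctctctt
*Pdgfra* held 1 E-box in its 250 bases, 182 bases before the start, and the windows of the other ligands in the table held none. Of all 32851 windows of that length in the table, 66.2% held one, so the match is common.

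Across the clusters *Pdgfra* was highest in cluster 4, at 393 CPM (385 to 402), and lowest in cluster 1, at 19.4 CPM (17.6 to 21.3). Between these lay cluster 2 at 346 CPM, cluster 0 at 322, cluster 7 at 318 (295 to 343), cluster 5 at 284, cluster 6 at 265 and cluster 3 at 144 (138 to 150). Clusters 0 and 7 did not differ beyond their counting intervals. *Pdgfa* ran the other way at the low end, with 67.4 CPM (64.1 to 71.0) in cluster 1 and 24.2 to 36.0 CPM elsewhere, so that its interval in cluster 1 overlapped that of no other cluster. *Pdgfc* was the flattest, at 21.1 CPM (19.2 to 23.1) in cluster 1, 25.9 to 32.9 CPM in 6 clusters and 45.3 CPM (36.8 to 55.2) in cluster 7, the smallest.

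The sparse ligands were also uneven. *Pdgfd* was at 24.0 CPM (18.0 to 31.5, 52 UMIs) in cluster 7, 13.5 CPM (12.1 to 15.2, 300 UMIs) in cluster 1, 6.74 CPM in cluster 3, 4.35 CPM in cluster 5 and 0.935 to 1.26 CPM in the others. Of its 644 UMIs, clusters 1 and 7 thus gave more than all other clusters together. *Pdgfb* had 33 of its 75 UMIs in cluster 1, 17 in cluster 5 and 10 in cluster 7. The 11 *Pdgfrb* UMIs were spread over 6 clusters with at most 3 in each, and no order could be read from them.

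**Figure D1:**
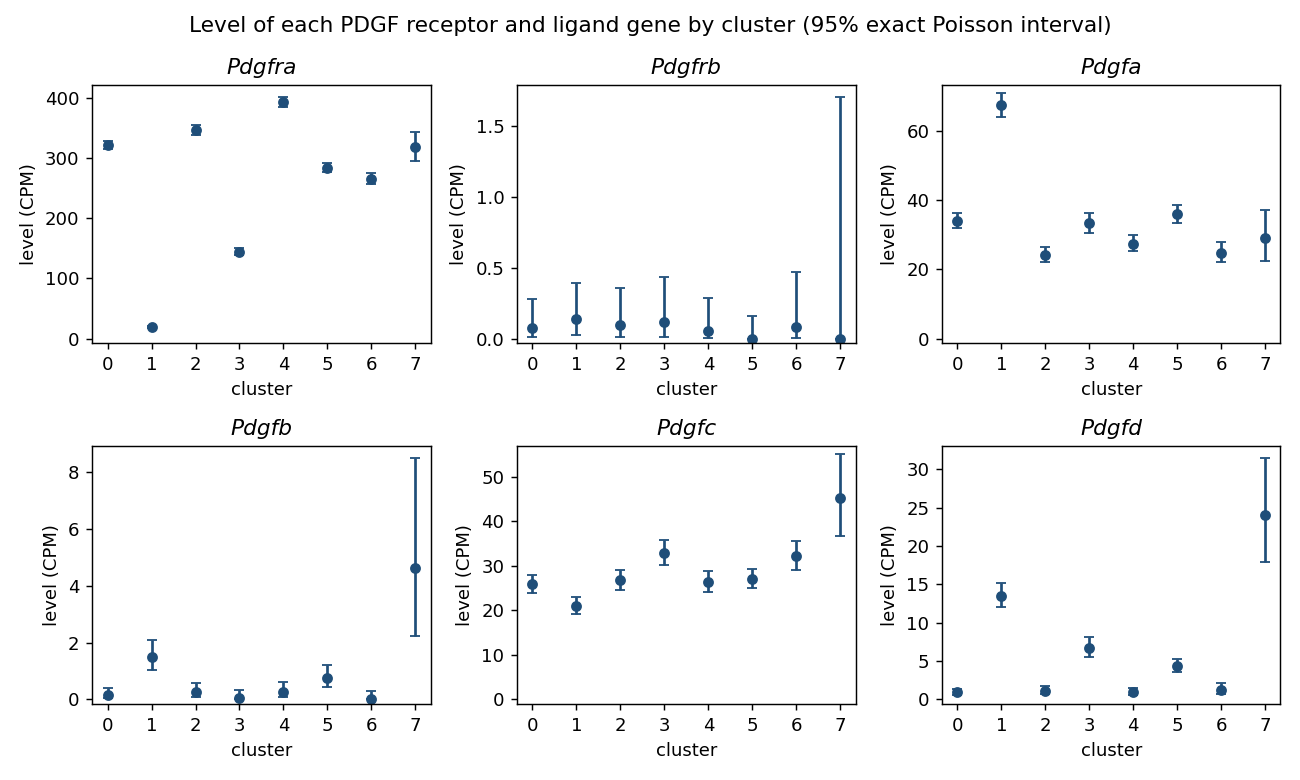
Level in CPM of each of the 6 genes (vertical axes from about 0, a scale of its own per gene) in clusters 0 to 7 (horizontal axes), with points for the summed nuclei of a cluster and bars for the 95% exact Poisson interval. *Pdgfra* is at 19.4 CPM in cluster 1 and at 144 to 393 CPM elsewhere, while *Pdgfa* is highest there at 67.4 CPM and *Pdgfd* is high in clusters 1 and 7.

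The highest cluster level was 20.3 times the lowest (18.4 to 22.4) for *Pdgfra*, 2.78 times (2.51 to 3.09) for *Pdgfa* and 2.15 times (1.71 to 2.68) for *Pdgfc*. These are the 3 members that reached 10 CPM in the kept nuclei, and all 3 passed a ratio of 2, as did 38.6% of the 9273 genes of that level, for which the median ratio was 1.79. A larger ratio than that of *Pdgfra* was found for 2.43% of those genes and a larger one than that of *Pdgfc* for 33.0%. The *Pdgfc* ratio rested on cluster 7 and was 1.56 without it. When the 6 genes were left out of the variable genes and the nuclei clustered anew, the *Pdgfra* ratio was 18.1 and its lowest cluster was again the one highest in *Pdgfa*.

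Set against all other nuclei, cluster 1 held 0.0646 times (0.0586 to 0.0710) the *Pdgfra* level, 2.21 times (2.08 to 2.34) the *Pdgfa* level and 0.744 times (0.674 to 0.820) the *Pdgfc* level. A level of at most 0.5 times that of all other nuclei was found for 8.78% of genes and a level of at least 2 times for 6.18%, and the median gene was at 1.11 times. *Pdgfd* was at 4.68 times (4.0 to 5.48) and *Pdgfb* at 4.22 times (2.59 to 6.82). In cluster 7 the ratio to all other nuclei was 5.64 (4.17 to 7.5) for *Pdgfd*, 9.89 (4.53 to 19.4) for *Pdgfb* and 1.68 (1.36 to 2.06) for *Pdgfc*, whereas *Pdgfra*, at 1.25 (1.16 to 1.35), was not low there.

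How much of the *Pdgfra* in cluster 1 belonged to its nuclei could not be settled, and no cell type known to lack the gene was available as a gauge. The transcripts of 4 Y-linked genes stood in cluster 1 at 0.0822 times (0.0697 to 0.0963) the level of all other nuclei, against 0.0646 for *Pdgfra* and 0.0573 for *Sox10*. They were at 6.997 to 7.14 CPM in clusters 1, 2 and 6 alike, so a low level of them was not particular to cluster 1. *Xist* without a Y-linked UMI was, however, found in 1562 of the 1703 thinned nuclei of cluster 1, against 321 of the 7057 outside it. The 95 nuclei of cluster 1 with a *Pdgfra* UMI after thinning carried 514 CPM of *Lhfpl3* and 26.1 CPM of *Sox10*, against 92.9 and 4.31 CPM in the 1608 without one. Of the 95, 29.5% had a Scrublet score in the top 8%, against 2.05% of the 1608. Without those high-scoring nuclei *Pdgfra* in cluster 1 was at 7.26 CPM (6.14 to 8.53), 0.0238 times all other nuclei, and *Pdgfa* at 69.0 CPM. The part of free RNA and of doublets in what was left was not tested.

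Within nuclei, 43.0% had no *Pdgfra* UMI after thinning, 24.9% had 1, 16.4% had 2 and 15.7% had 3 or more. Before thinning, 73.7% of nuclei had at least 1 and the highest count in a nucleus was 43. In cluster 1, 94.4% of nuclei had none, in cluster 3 it was 55.6%, and in the other clusters 17.0% to 31.2%. The variance of the thinned counts was 1.67 times their mean over all nuclei and 1.19 to 1.42 times within clusters, so part of the spread lay between clusters. *Pdgfa* had 3 or more UMIs in 0.285% of thinned nuclei and *Pdgfc* in 0.126%.

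**Figure D2:**
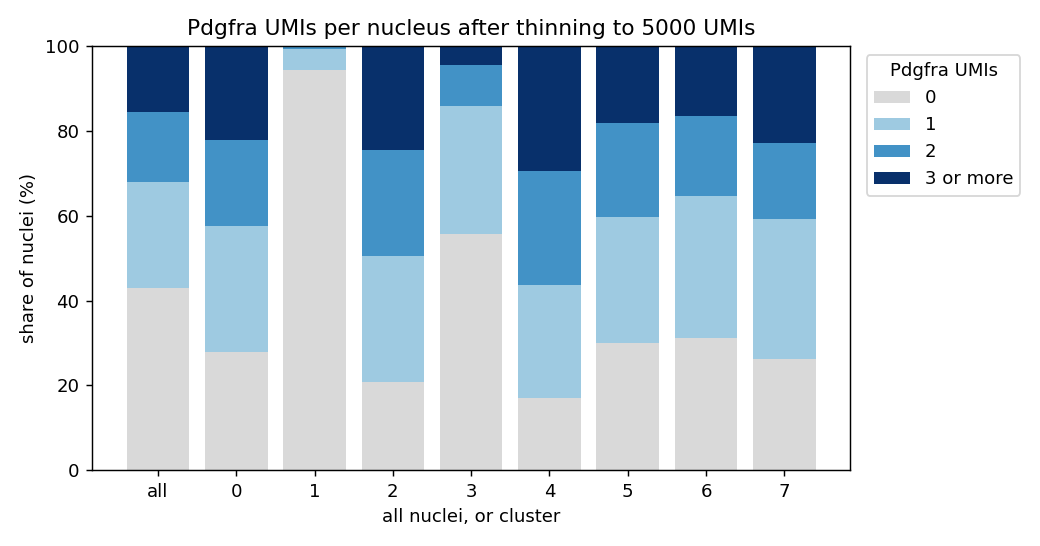
Share of nuclei in percent (vertical axis, stacked bars from 0 to 100) with 0, 1, 2 and 3 or more *Pdgfra* UMIs after thinning to 5000 UMIs, for all 8760 nuclei and for each cluster (horizontal axis). The grey part, nuclei with none, is 94.4% in cluster 1 and 17.0% in cluster 4.

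A ligand was found with *Pdgfra* in the same thinned nucleus in 14.2% (13.4 to 14.9) of nuclei, *Pdgfra* without a ligand in 42.8%, a single ligand without *Pdgfra* in 13.1%, 2 or more ligands without it in 1.34% and neither in 28.6%. *Pdgfa* was found in 13.5% of the 4989 nuclei with *Pdgfra* and in 20.7% of the 3771 without it, a difference of -7.13 percentage points (-8.75 to -5.54). *Pdgfd* was found in 1.34% and 3.47%, a difference of -2.13 points (-2.83 to -1.48). *Pdgfb* was found in 0.200% and 0.477%, a difference of -0.277 points (-0.568 to -0.0341) whose interval held 0 outside cluster 1, at 3000 UMIs, with 3000 to 7000 genes and with at most 5% mitochondrial UMIs. *Pdgfc* was found in 12.01% and 12.1%, with an interval of the difference from -1.47 to 1.28 points.

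The *Pdgfa* difference was smaller once clusters were taken apart. Outside cluster 1 *Pdgfa* was found in 13.4% of nuclei with *Pdgfra* and 15.2% without, a difference of -1.78 points (-3.61 to -0.0290). Within single clusters the *Pdgfa* difference ran from -6.00 to 2.44 points and was below 0 in 7 of 8. Its interval held 0 in all 8, but single clusters hold fewer nuclei and their intervals are wider than that over all nuclei. Among the other ligands, only the cluster 2 intervals of *Pdgfc* and *Pdgfb* excluded 0, both below it. Outside cluster 1 *Pdgfc* differed by -1.83 points (-3.59 to -0.153) and *Pdgfd* by -0.767 points (-1.51 to -0.142). Without thinning the *Pdgfc* difference was 11.2 points in the other direction, a comparison in which deeper nuclei are more likely to show both genes.

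Few thinned nuclei had 2 or more ligands, and *Pdgfc* and *Pdgfd* were found with *Pdgfa* at close to their shares in all thinned nuclei. Of the 1456 thinned nuclei with *Pdgfa*, 11.3% had *Pdgfc* and 2.40% had *Pdgfd*, beside 12.04% and 2.26% of all thinned nuclei. Of the 8760 nuclei, 109 had 2 or more of the 4 ligands with *Pdgfra* and 117 had them without it. *Egfr*, the receptor of epidermal growth factor, was found in 8.08% of nuclei with *Pdgfra* and 36.0% of those without, and outside cluster 1 in 7.21% and 17.4%, so that the difference went from -28.0 to -10.2 points. Its level was 236 CPM in cluster 1 and 28.1 CPM in all other nuclei.

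**Figure D3:**
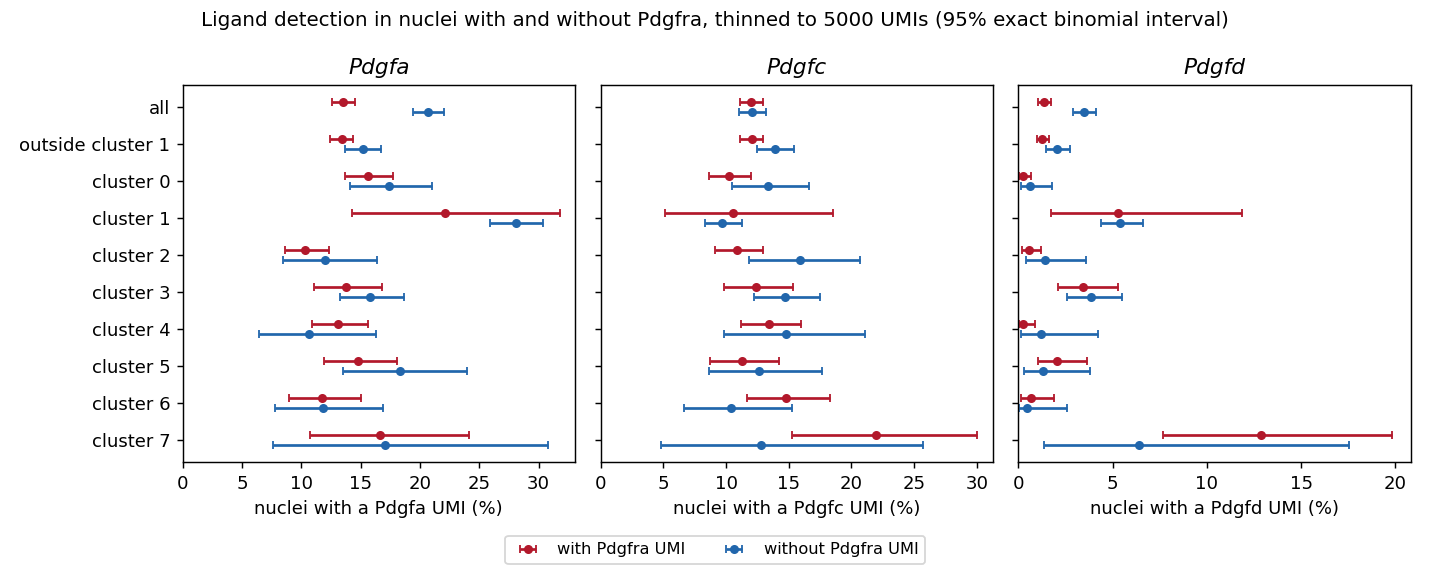
Share of thinned nuclei in percent (horizontal axes) with a UMI of *Pdgfa*, *Pdgfc* or *Pdgfd*, in nuclei with (red) and without (blue) a *Pdgfra* UMI, for all nuclei, all but cluster 1 and each cluster (vertical axis), with 95% exact binomial intervals. The *Pdgfa* points stand apart over all nuclei, at 13.5% and 20.7%, and their intervals overlap within each cluster.

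Sequencing depth went with the levels. From the lowest to the highest quartile of UMIs per nucleus, *Pdgfra* stood at 170, 210, 257 and 299 CPM and *Pdgfa* at 48.0, 39.9, 34.1 and 32.9 CPM. With cluster 1 left out, *Pdgfra* stood at 229 (221 to 237), 291, 306 and 315 CPM (311 to 320) and *Pdgfa* at 36.3, 29.9, 27.9 and 30.9 CPM. *Pdgfc* was between 24.8 and 28.0 CPM in all 4 quartiles. The part of depth in the cluster differences was not tested beyond this.

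By cell cycle phase, assigned from S and G2/M gene scores, *Pdgfra* was at 255 CPM (250 to 261) in G1, 222 CPM (217 to 228) in S and 271 CPM (268 to 275) in G2/M nuclei. *Pdgfc* was at 27.6, 26.8 and 27.1 CPM, within counting error of each other. *Pdgfa* was at 38.0, 33.1 and 36.9 CPM and *Pdgfd* at 4.74 (4.07 to 5.49), 6.23 (5.40 to 7.16) and 3.70 CPM. With cluster 1 left out the *Pdgfa* intervals overlapped, at 31.2, 29.0 and 30.8 CPM, and *Pdgfd* was at 3.50, 3.83 and 2.07 CPM (1.72 to 2.47), where G1 and S overlapped. *Pdgfra* was there at 289.7, 263 and 323 CPM.

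The culture mixed both sexes, and nuclei were sorted by whether they had a UMI of *Xist* or of a Y-linked gene. Of the 8760 thinned nuclei, 1883 had *Xist* only, 1643 had Y-linked transcripts only and 5145 had neither. Of the 1883, 1562 were in cluster 1. In nuclei with *Xist* only, *Pdgfra* was at 77.8 CPM, in nuclei with Y-linked transcripts only at 236 CPM, and in nuclei with neither at 320 CPM (316 to 324). The 89 nuclei with both are left out of the comparison and had *Pdgfra* at 136 CPM and *Pdgfc* at 21.5 CPM (15.3 to 29.4). With cluster 1 left out the first 2 stood at 237 CPM (226 to 248.5) and 236 CPM (230 to 242) and did not differ beyond their intervals. *Pdgfa* stood at 60.1, 33.6 and 29.4 CPM in the 3 classes, and outside cluster 1 at 38.4 (34.1 to 43.1), 33.5 (31.2 to 35.9) and 28.8 CPM. *Pdgfd* stood at 11.2, 4.52 and 2.47 CPM, and outside cluster 1 at 5.37, 4.52 and 2.16 CPM. Outside cluster 1 the median nucleus of the 3 classes had 23493, 11417 and 15278 UMIs, and the part of depth in these differences was not tested.

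**Figure D4:**
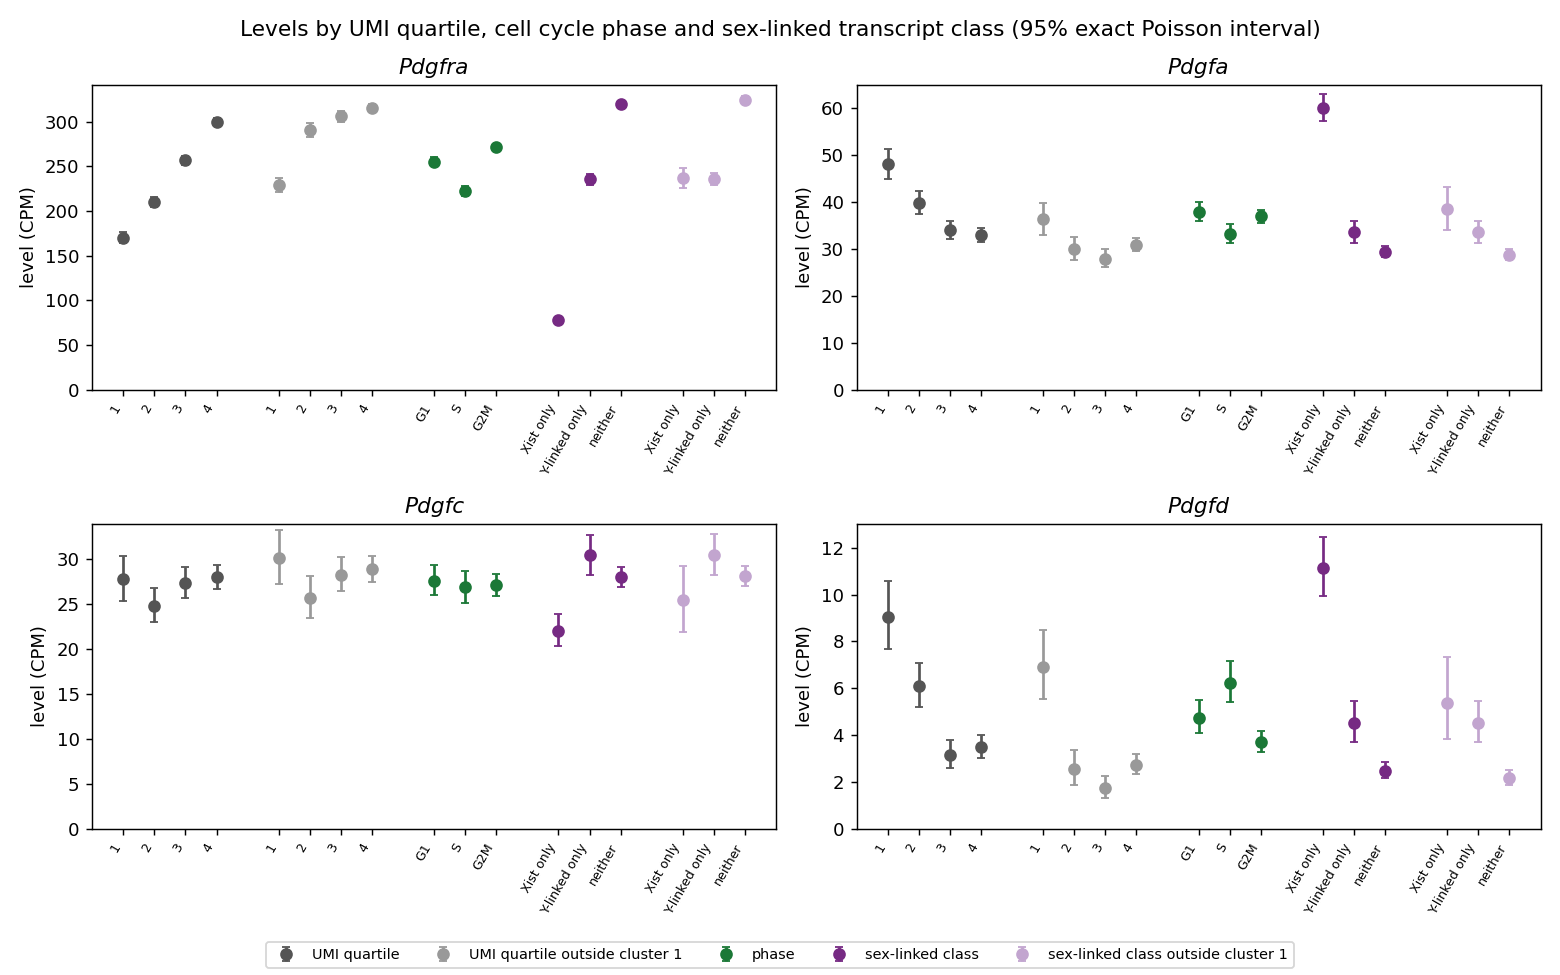
Level in CPM (vertical axes, from 0) of *Pdgfra*, *Pdgfa*, *Pdgfc* and *Pdgfd* by quartile of UMIs per nucleus from 1 (lowest) to 4, by cell cycle phase and by class of sex-linked transcript without the 89 nuclei that had both kinds (horizontal axes, colored by grouping, paler where cluster 1 is left out), with 95% exact Poisson intervals. *Pdgfra* runs from 170 to 299 CPM over the quartiles and from 229 to 315 CPM without cluster 1, and *Pdgfc* stays between 24.8 and 30.4 CPM in all groups plotted but the nuclei with *Xist* only of all clusters, where it is at 22.0 CPM.

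Genes that act on the ligands were read from a list of 7 proteases, of which 4 reached 10 CPM and 3 had a highest cluster at least 2 times the lowest, as 38.6% of all genes of that level had. *Plat*, tissue plasminogen activator, which activates PDGF-C, was at 177 CPM in cluster 1, 3.27 times all other nuclei. The convertases *Pcsk5* and *Pcsk6* were at 0.482 and 0.308 times there, *Pcsk7* at 0.859 times and *Furin*, under 10 CPM in the library, at 13.7 CPM and 2.09 times. *Plau* and *St14*, whose proteases can activate PDGF-D, were at 0.0992 and 1.06 CPM in the library.

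Of 6 genes for co-receptors and binding partners, 5 reached 10 CPM and all 5 passed a ratio of 2, beside 38.6% of all genes. *Sparc*, whose matrix protein binds PDGF, was at 597 CPM in cluster 1, 3.70 times all other nuclei, and *Nrp1*, which encodes a co-receptor, at 52.0 CPM, 4.37 times. *Cspg4*, the proteoglycan NG2 of OPCs, was at 0.164 times. *Itgav*, an integrin subunit, was highest in cluster 7, at 255 CPM.

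Downstream, all 20 adapter and effector genes reached 10 CPM and 7 passed a ratio of 2, a share of 35.0% against 38.6% of all genes. In cluster 1, 2 of the 20 were at 2 times or more, *Shc1* (2.99 times) and *Nck2* (2.42 times), beside 6.18% of all genes. At 0.5 times or less were 2 of the 20, the PI3K subunits *Pik3cb* (0.229 times) and *Pik3r1* (0.335 times), beside 8.78% of all genes. *Fyn*, a SRC-family kinase, was the most abundant at 545 CPM and was at 1.00 times. Of the 8 negative regulators analysed 7 reached 10 CPM, and 1 of the 7 passed a ratio of 2, beside 38.6% of all genes. It was the ubiquitin ligase gene *Cblb*, at 2.46 times in cluster 1.

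Of 15 ERK feedback and early response genes, 14 reached 10 CPM and 9 passed a ratio of 2, beside 38.6% of all genes. The phosphatase gene *Dusp4* was at 4.15 times in cluster 1 and its relative *Dusp6* at 1.85 times, and the early response gene *Egr1* was at 0.385 times. *Spry2*, a feedback inhibitor of the pathway, was highest in cluster 7, at 149.8 CPM. *Ccnd1*, cyclin D1, the most abundant of the list at 1252 CPM, was at 0.735 times. Genes of the ERK list thus lay on both sides of 1 in the cluster low in *Pdgfra*, with a median of 1.19 beside 1.11 for all genes.

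All 7 of the 10 other growth factor receptors that reached 10 CPM passed a ratio of 2, beside 38.6% of all genes, with *Egfr* at 8.39 times in cluster 1, *Insr* at 0.462 times, *Ntrk2* at 0.569 times and *Ntrk3* at 0.243 times. *Igf1r*, for the receptor of insulin-like growth factor 1, was the most abundant at 312 CPM and was at 1.09 times. Among the relatives of the PDGF receptors only *Kit* reached 10 CPM, at 29.8 CPM, and its highest cluster was cluster 3. Of 5 VEGF ligand genes, 2 reached 10 CPM and 1 of these, *Vegfa*, passed a ratio of 2, beside 38.6% of all genes. The highest level of *Vegfa*, 30.02 CPM, was in cluster 1, while *Vegfb* was the most abundant at 47.1 CPM.

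**Figure D5:**
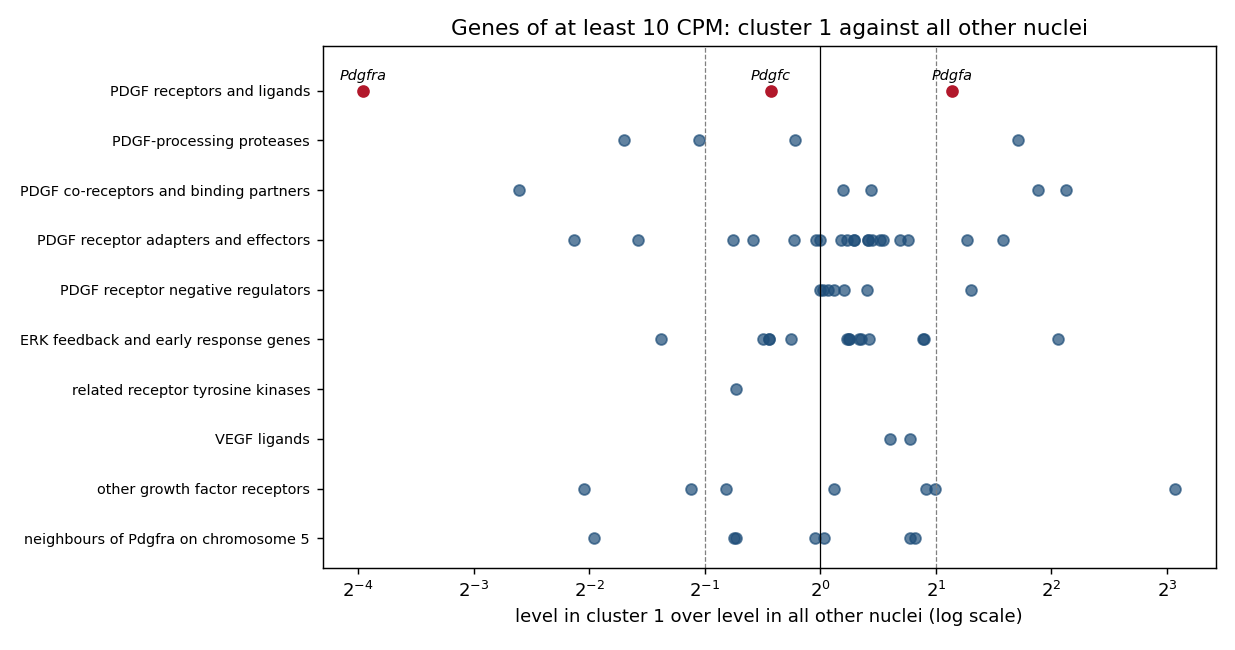
Ratio of the level in cluster 1 to the level in all other nuclei (horizontal axis, log scale, solid line at 1, dashed lines at 0.5 and 2) for genes of at least 10 CPM in the PDGF genes and 9 lists of related genes (vertical axis), with a point per gene. *Pdgfra*, at 0.0646, lies left of every point of the lists, and the point farthest to the right is *Egfr*, at 8.39.

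The genes next to *Pdgfra* on chromosome 5 differed among themselves. In cluster 1 *Lnx1* was at 0.258 times all other nuclei, *Fip1l1*, the most abundant at 282 CPM, at 0.597, *Kit* at 0.603 and *Srd5a3* at 1.77, while *Chic2*, between *Lnx1* and *Pdgfra*, was at 0.970 and *Clock* at 1.02. Genes of chromosome 5 as a whole had a share of UMIs in cluster 1 that was 1.04 times that of all other nuclei. The median log2 ratio over 589 of these genes was 0.266 in cluster 1, the highest of the clusters. For all genes of at least 10 CPM the median ratio there, not in log2, was 1.11.

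Over the 8 cluster levels, the genes whose pattern was most like that of *Pdgfra*, among 9271 genes, were *Bmp7* (Pearson correlation 0.997), *Dennd4a*, *Ankrd12*, *Eeig1* and *Zfyve9*. For *Pdgfa* they were *Ahsa1* (0.992), *Vangl2*, *Nup153*, *Igfbp3* and *Lasp1*, and for *Pdgfc* they were *Dapk1* (0.962), *Sesn3*, *Dner*, *Nkain3* and *Zfp787*. These correlations describe 8 points of 1 library that share depth and clustering.

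Markers of mural cells, fibroblasts, endothelial cells and microglia were scarce. The 8 mural cell markers summed to 4.81 CPM, with 7 of the 8 at or under 1 CPM, and their sum was lowest in cluster 6, at 1.26 CPM, and highest in cluster 1, at 18.2 CPM. *Notch3* gave 15.4 CPM of that and *Acta2* gave 2.53 CPM, which was 3.54 times the *Acta2* level of all other nuclei. *Rgs5*, *Kcnj8*, *Abcc9*, *Vtn*, *Anpep* and *Pdgfrb* were at 0 to 0.135 CPM in cluster 1. The 5 fibroblast markers summed to 0.567 CPM, the 5 endothelial markers to 9.49 CPM and the 5 microglia markers to 7.30 CPM. Beside the high *Pdgfd* and *Pdgfc* of cluster 7, the fibroblast sum was highest there, at 8.32 CPM, as was the microglia sum, at 16.2 CPM. Of the fibroblast markers, *Lum*, *Col1a1* and *Col3a1* were each at 2.77 CPM in cluster 7, where 3 UMIs make 1.39 CPM. *Dcn* and *Col1a2* were at 0 CPM there. *P2ry12* gave 15.3 CPM of the microglia sum, while *Cx3cr1* was at 0.925 CPM against 1.53 CPM in the library. *Csf1r*, *Aif1* and *C1qa* were at 0 CPM in cluster 7. Of the neuron markers, *Gad1* was at 25.4 CPM in cluster 7 against 2.32 CPM in the library. The others were lower there, with *Syt1* at 73.5 against 109 CPM, *Snap25* at 6.47 against 8.24 and *Tubb3* at 20.8 against 26.1. *Rbfox3* was at 1.39 against 4.04 CPM and *Slc17a7* at 0 against 0.0992. The part of these marker genes in the *Pdgfd* and *Pdgfc* levels was not tested.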

How the data were processed

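Nuclei of 1 BBp53n OPC culture were measured with 10x 3' v3.1 chemistry. The deposited values are raw UMI counts that the authors made with Cell Ranger 8.0.1 on mm39, before any cutoff on genes. Annotation was GENCODE M39 (GRCm39, the same build), in which 33185 of 33696 genes matched by Ensembl ID. Nuclei with 2000 to 8000 genes were clustered with Seurat 5.3.0 in R 4.3.3 (log normalization, 3000 variable genes, 20 components, 200 neighbors, resolution 1). Of these nuclei, 1954 had at most 5% mitochondrial UMIs and 6963 had more. The paper of the study kept fewer nuclei of this culture and reported 5 clusters, so its nuclei and clusters are not those used here. Counts were summed over nuclei to CPM, with exact Poisson intervals for levels, exact (Clopper-Pearson) binomial intervals for shares, conditional exact intervals for ratios and Newcombe intervals for differences of shares (SciPy 1.17.1). Depth is the total of 141138093 UMIs, and the smallest cluster held 2162531, so its intervals are the widest. Nuclei were thinned to 5000 UMIs for shares. Scrublet (Scanpy 1.11.5) called 0 doublets in a library of this size, so its calls were not used, and none was removed. Its scores served as a ranking only. The scripts were checked on simulated data.

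With 1 library there was no test. Ratios were read for genes of at least 10 CPM, against a ratio of 2. All members were named, with the most abundant gene of each list, up to 4 genes past the ratio of 2 and the 5 genes most like each member of at least 10 CPM. *Furin*, *Pcsk7*, *Plau*, *St14*, *Chic2* and *Clock* were named after their values were seen, and 1 gene that the rule names is not reported here. The members and lists were chosen with earlier results of these data known. Alternatives were other cutoffs, thinning, doublet and clustering settings. The tumor samples were not analysed here.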

Additional observations from a re-analysis of the deposited data

Results flagged for a closer look

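Barcodes outside the limits of 2000 and 8000 detected genes were not used above, and members were found in them above the limit that a count of 0 allows (3 UMIs, which is 1.71 CPM in the 918 barcodes below 2000 genes and 0.261 CPM in the 212 above 8000). The barcodes below 2000 genes had 19.5% mitochondrial UMIs, against 6.34% in the kept nuclei. Below 2000 genes *Pdgfra* was at 243 CPM, *Pdgfa* at 22.2 CPM, *Pdgfc* at 28.5 CPM and *Pdgfd*, from 14 UMIs, at 7.97 CPM. Above 8000 genes *Pdgfra* was at 272 CPM, *Pdgfa* at 38.4 CPM, *Pdgfc* at 25.2 CPM, *Pdgfd* at 3.22 CPM and *Pdgfb*, from 6 UMIs, at 0.523 CPM.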

How the results depend on the processing

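No paired analysis was possible because only 1 library was analysed here. Of 133 values recomputed, 93 stayed within the counting interval of the reported value (for counts of genes, within 1.5 times), 40 moved and none changed sign where the interval excluded 0. With 3000 to 7000 genes *Pdgfra* was at 250.8 CPM. With at most 5% mitochondrial UMIs *Pdgfa* was at 35.3, *Pdgfc* at 31.1 and *Pdgfd* at 4.02 CPM. The share of nuclei followed the depth, from thinning to 3000 UMIs to no thinning, with 44.3% and 73.7% for *Pdgfra*, 10.6% and 39.3% for *Pdgfa*, 0.179% and 0.807% for *Pdgfb*, 7.46% and 29.4% for *Pdgfc*, 1.40% and 5.07% for *Pdgfd*, and 7.14% and 42.7% for *Pdgfra* with a ligand. At most 5% mitochondrial UMIs gave 12.8% for *Pdgfc* and 15.2% for *Pdgfra* with a ligand, and leaving out the highest Scrublet scores gave 55.8% for *Pdgfra*. The differences of shares between nuclei with and without *Pdgfra* were, at 3000 UMIs, -4.34 points for *Pdgfa* and -1.06 for *Pdgfd*. With no thinning they were -4.69 for *Pdgfa*, -0.643 for *Pdgfb*, 11.2 for *Pdgfc* and -4.83 for *Pdgfd*, and with at most 5% mitochondrial UMIs -4.01 for *Pdgfa* and -0.246 for *Pdgfrb*. The highest over lowest cluster level of *Pdgfra* was 15.9 at resolution 0.4, 62.3 with 20 neighbors (16 clusters), 18.1 with the members left out of the variable genes, 10.8 in nuclei with at most 5% mitochondrial UMIs and 54.3 without the highest Scrublet scores. *Pdgfra* in its lowest cluster was at 0.0715, 0.0244, 0.121 and 0.0238 times all other nuclei at resolution 0.4, with 20 neighbors, with at most 5% mitochondrial UMIs and without the highest Scrublet scores. In nuclei with at most 5% mitochondrial UMIs the ratio was 2.22 for *Pdgfa* and 1.52 for *Pdgfc*, and without cluster 7 it was 1.56 for *Pdgfc*. With 20 neighbors 5791 genes passed a ratio of 2, against 3578. In all 6 clusterings and both subsets of the first, the cluster lowest in *Pdgfra* was the highest in *Pdgfa*. *Pdgfa* in that cluster was at 2.21 times all other nuclei as reported. It ranged from 1.61 (at most 5% mitochondrial UMIs) to 2.31 (without the highest Scrublet scores). Leaving out cluster 7, or the highest Scrublet scores from the clusters, was chosen after seeing the data. The cause of these shifts was not tested. Highest over lowest ratios of *Pdgfrb*, *Pdgfb* and *Pdgfd*, under 10 CPM, were not read. In the cluster lowest in *Pdgfra*, *Pdgfd* was at 4.68 times all other nuclei, with a range of 2.85 (20 neighbors) to 5.48 (without the highest Scrublet scores). The highest cluster level in nuclei with at most 5% mitochondrial UMIs was 11.3 CPM for *Pdgfd* (24.05 as reported) and 0.704 CPM for *Pdgfb* (4.62 as reported).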
